A study of Mus musculus with 2 samples.

Results

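The regions described here are 771 H3R17me2a peaks of mouse heart that lie at genes for long non-coding RNAs (lncRNAs), away from protein-coding genes. They were taken from 20591 shared peaks on chromosomes 1 to 19, where a shared peak is a peak of the first deposited list that overlaps a peak of the second list by at least 1 bp. A shared peak was kept when it overlapped an annotated lncRNA gene span extended by 1000 bp on each side, and when its midpoint lay over 5000 bp from every protein-coding gene span and at most 100000 bp from the nearest. These lncRNA peaks were 3.74% of the shared peaks (95% exact binomial interval 3.49 to 4.01%, counting error only). They were 30.4% of the 2537 shared peaks at that distance from coding genes (28.6 to 32.2%), and the other 1766 touched no lncRNA gene. The choice used which peaks were called and where they lie. Fold enrichment, peak p-values and their ranks are therefore given as descriptions, with no test.

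The series profiled chromatin of wild-type mice by ChIP-seq, with an antibody that one label names H3R17me2 and the series design H3R17me2a. Both samples carry the tissue label heart and the age P21, postnatal day 21, while their source label reads cardiac fibroblast and the series design speaks of neonatal heart. No treatment, Cre or transgene is labelled, no Carm1-deficient sample was analysed here, and no label tells if each heart came from its own animal. Both samples form 1 group, so no condition was compared. In bulk tissue, fewer cells with the mark and less mark per cell cannot be told apart.

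H3R17me2a is the asymmetric dimethylation of an arginine in the tail of histone H3. It is placed by CARM1 (PRMT4), a methyltransferase that nuclear receptors and other transcription factors recruit as a coactivator, and it is found at promoters and enhancers of active genes. An lncRNA gene is transcribed like a coding gene but its RNA holds no long reading frame. Some of these RNAs build nuclear bodies, some are precursors of microRNAs or small nucleolar RNAs, some are made beside a developmental regulator and act on it, and many have no known role.

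The promoter sequences below are shown because they span what the lncRNA starts under a peak had in common and how they differed: CpG-rich starts of host genes, CpG-poor starts of Gm predicted genes, and the starts of the muscle microRNA host Mir1a-1hg and of Malat1. Each is 300 bases, from 250 before the annotated start to 50 after it, read 5′ to 3′ on the strand of the gene, from RefSeq on GRCm38.p6, which has the coordinates of mm10. Capitals mark matches, on either strand, to the 6 motifs searched, named GATA, nuclear receptor, GC box, ETS, TEAD and MEF2, whose letters stand with their counts further on. A window with no capitals holds none of these letters. A match is a description of the letters, not a binding site.
Mir1a-1hg, chr2:180385354-180385653, plus strand: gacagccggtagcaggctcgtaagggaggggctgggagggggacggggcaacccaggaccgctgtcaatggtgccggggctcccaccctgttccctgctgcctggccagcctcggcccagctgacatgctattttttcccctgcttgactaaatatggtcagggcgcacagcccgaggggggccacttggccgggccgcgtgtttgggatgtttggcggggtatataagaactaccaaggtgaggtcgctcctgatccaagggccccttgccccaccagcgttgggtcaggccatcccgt
Malat1, chr19:5802623-5802922, minus strand: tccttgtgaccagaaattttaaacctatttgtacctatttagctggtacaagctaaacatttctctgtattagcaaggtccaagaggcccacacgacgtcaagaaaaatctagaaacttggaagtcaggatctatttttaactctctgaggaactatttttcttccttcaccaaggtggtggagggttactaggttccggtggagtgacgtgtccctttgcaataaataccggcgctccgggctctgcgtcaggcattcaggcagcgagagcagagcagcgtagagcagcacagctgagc
Dleu2, chr14:61682324-61682623, minus strand: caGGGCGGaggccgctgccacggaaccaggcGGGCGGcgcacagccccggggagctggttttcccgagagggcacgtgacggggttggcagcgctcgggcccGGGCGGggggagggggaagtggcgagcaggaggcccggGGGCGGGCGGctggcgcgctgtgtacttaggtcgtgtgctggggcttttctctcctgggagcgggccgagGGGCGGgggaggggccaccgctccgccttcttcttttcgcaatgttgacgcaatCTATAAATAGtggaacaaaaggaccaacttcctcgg
Snhg5, chr9:88522848-88523147, minus strand: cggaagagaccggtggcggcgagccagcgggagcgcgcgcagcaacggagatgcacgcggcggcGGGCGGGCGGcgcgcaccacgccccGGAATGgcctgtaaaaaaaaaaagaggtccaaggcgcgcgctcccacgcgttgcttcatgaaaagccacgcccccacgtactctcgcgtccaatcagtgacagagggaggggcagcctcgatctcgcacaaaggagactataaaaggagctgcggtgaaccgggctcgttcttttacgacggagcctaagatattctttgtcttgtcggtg
Gm34455, chr17:26490920-26491219, minus strand: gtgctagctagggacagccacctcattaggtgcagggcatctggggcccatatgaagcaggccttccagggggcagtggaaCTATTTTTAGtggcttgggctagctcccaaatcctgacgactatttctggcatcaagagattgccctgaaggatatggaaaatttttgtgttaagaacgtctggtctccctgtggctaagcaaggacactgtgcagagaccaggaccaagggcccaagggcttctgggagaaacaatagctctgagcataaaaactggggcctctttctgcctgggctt
Gm28867, chr1:118359072-118359371, plus strand: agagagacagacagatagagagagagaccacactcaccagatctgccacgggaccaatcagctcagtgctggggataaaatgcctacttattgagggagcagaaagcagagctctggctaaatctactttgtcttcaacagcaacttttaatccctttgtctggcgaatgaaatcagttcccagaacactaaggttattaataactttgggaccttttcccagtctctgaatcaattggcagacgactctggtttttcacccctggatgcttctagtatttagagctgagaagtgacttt

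The mature microRNAs below belong to lncRNA host genes with a peak, and are shown because the first lay under a peak itself and the others belong to hosts whose peaks are described below. Capitals mark the seed, bases 2 to 8, which pairs with target RNAs. The let-7 sequences share their seed. Only the 5p arm of miR-1a-1 was tabled, so its 3p arm, which has its own seed, is not shown.
miR-1a-1-5p, in Mir1a-1hg: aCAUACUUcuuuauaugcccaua
miR-22-3p, in Mir22hg: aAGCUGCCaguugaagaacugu
let-7c-5p, in Lncppara: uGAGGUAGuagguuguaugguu
let-7b-5p, in Lncppara: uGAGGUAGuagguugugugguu

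The lists held 21497 peaks (list 1, the sample labelled replicate 1) and 38012 peaks (list 2), with median widths of 462 and 461 bp. List 1 held no peak with a −log10 p under 5, while 51.3% of list 2 peaks were under that value. The reads at each summit were recovered from the deposited fold and p. Both lists had the same summit base at 42.2% of the shared peaks, and paired reads were compared as a set at these only. At the 8671 shared peaks with the same summit base and recovered reads in both lists, both medians were 27 reads and 80.7% of the pairs lay within 2 reads. The standard deviation of their difference was 0.279 of what independent counting error gives, so the lists were treated as 2 calls on largely the same reads and the samples were counted as 1. Values from both lists are given side by side, not as a mean of replicates, and the total depth of each library is unknown here. A coding gene was counted as marked at an end when each list had a peak within 1000 bp of either end, not necessarily a shared peak. Among marker genes this held for 8 of 10 cardiomyocyte genes and 1 of 10 fibroblast genes. It also held for 0 of 8 endothelial, 1 of 7 immune, 1 of 5 mural and 0 of 5 neuronal genes. The same held for 40.1% of all 20665 coding genes, so cardiomyocyte genes were above that share and fibroblast genes below it. The source label reads cardiac fibroblast, and which cells gave the peaks was not tested.

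The 771 peaks lay at 562 lncRNA genes, on all 19 autosomes, from 69 peaks on chromosome 1 to 20 peaks on chromosome 18. A total of 6458 of the 12408 annotated autosomal lncRNA genes reached into the distance range and could have held such a peak, and 8.7% of them did. By name, 398 were Gm predicted genes, 108 Rik clones, 13 LOC entries and 43 carried another symbol, so most carry only a placeholder name. Names were not counted among the other lncRNA genes in range, so this is no trait particular to the marked genes. A single peak was found at 380 genes, 118 had 2 peaks and 64 had 3 or more, up to 8. The share with a peak grew with the length of the gene span: 6.6% of 530 genes up to 2000 bp, 7.63% of 2790 up to 10000 bp, 9.52% of 2604 up to 50000 bp and 12.4% of 534 longer ones. Median spans were 12318 bp with a peak and 9385 bp without. Of the 562 genes, 72 (12.8%) overlapped a coding gene elsewhere along their span.

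The peaks gathered at the starts of lncRNA genes. An end of an lncRNA span, extended by 1000 bp on both sides, was touched by 400 of the 771 peaks (51.9%, exact interval 48.3 to 55.5%). For 626 peaks the lncRNA had a start with strand in the RefSeq promoter table, and 250 of them (39.9%, 36.1 to 43.9%) lay within 1000 bp of such a start. Strand made it possible to tell the start from the far end at 1416 lncRNA genes of at least 5000 bp with a single start and both ends in the distance range. The start was marked at 86 (6.07%, 4.89 to 7.45%) and the far end at 25 (1.77%, 1.15 to 2.6%). Only the start was marked at 78, only the far end at 17, and both at 8.

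Summits of shared peaks clustered on both sides of the 3767 lncRNA starts in the range. The 500 bp before the start held 79 summits, or 2.1 per 100 starts, and the 500 bp after it held 73, or 1.94 per 100. The next 500 bp downstream held 46, or 1.22 per 100. From 3 to 5 kb away, a stretch that is 4 times as long, 68 summits lay upstream and 61 downstream. The profile at the 20063 coding starts had the same centre, with 20.9 and 16.8 summits per 100 starts in the central bins.

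**Figure D1:**
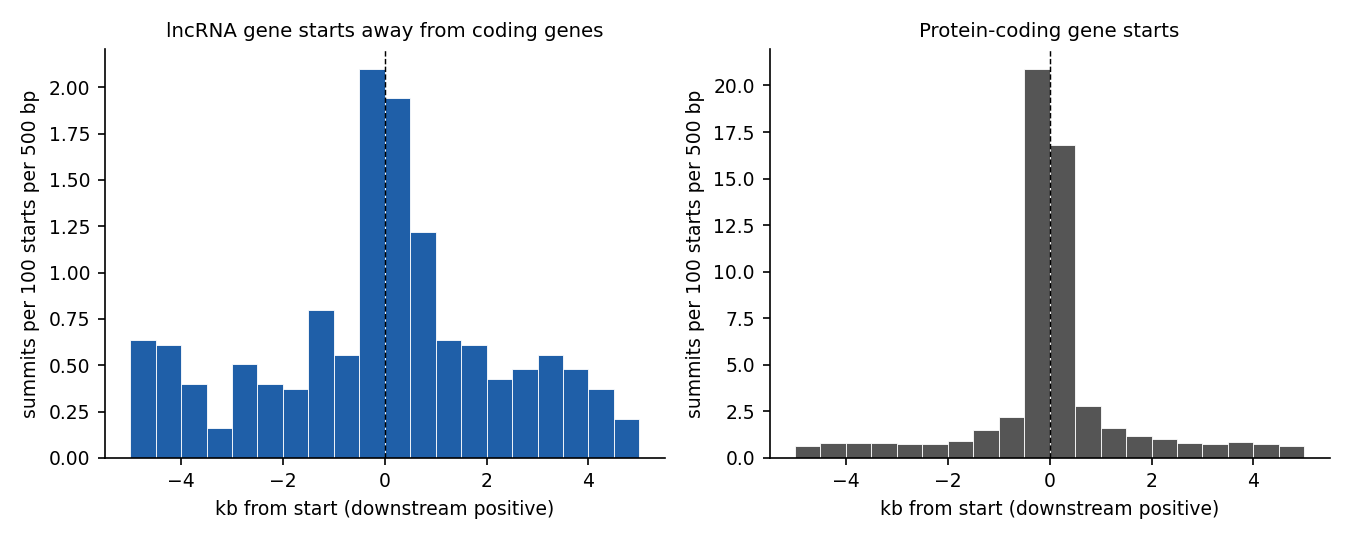
Shared peak summits per 100 starts in 500-bp bins by distance in kb from the annotated start, downstream positive, at 3767 lncRNA starts away from coding genes (left) and 20063 coding starts (right); the vertical axes differ. Both profiles are highest in the bins that touch the start, at 2.1 and 1.94 per 100 for lncRNA genes and 20.9 and 16.8 per 100 for coding genes.

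Counted against the genome, the same picture held over each distance band. The range from 5 to 100 kb of coding genes covered 628 Mb, of which extended lncRNA spans took 95.2 Mb, or 15.2% of bases, and held 29.8% of peak midpoints. Windows of 1000 bp around lncRNA starts took 1.26% of the bases and 8.83% of the midpoints. That is 28.2 midpoints per Mb at lncRNA starts, 6.11 per Mb in the rest of the lncRNA spans and 3.34 per Mb where no lncRNA gene is annotated. From the nearest to the farthest band, density at starts was 31.6, 32.1, 26.3 and 24.2 per Mb. The rest of the lncRNA spans fell from 7.78 to 4.53 per Mb and the ground without lncRNA genes from 5.07 to 2.17 per Mb. The order of the 3 classes was the same in all 4 bands.

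**Figure D2:**
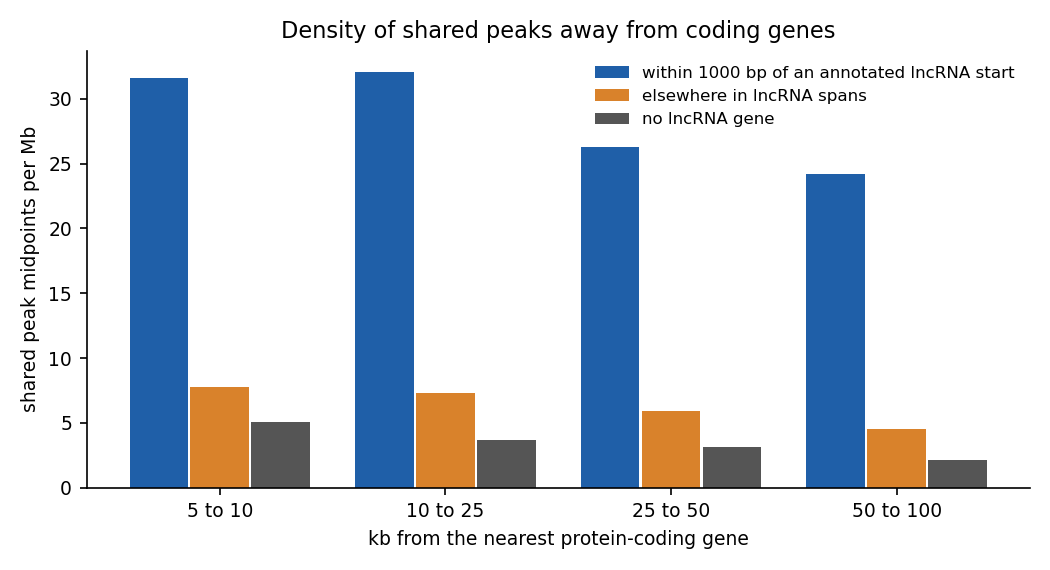
Shared peak midpoints per Mb by distance in kb from the nearest protein-coding gene, within 1000 bp of an annotated lncRNA start, elsewhere in extended lncRNA spans, and where there is no lncRNA gene. Bars are counts over covered Mb with no error bar, and starts had 24.2 to 32.1 per Mb in each band against 2.17 to 5.07 per Mb without an lncRNA gene.

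By distance, 128 lncRNA peaks lay 5 to 10 kb from the nearest coding gene, 254 at 10 to 25 kb, 205 at 25 to 50 kb and 184 at 50 to 100 kb. They made up 23.1% of the shared peaks in the nearest band (exact interval 19.7 to 26.9%), 30.7% and 31.9% in the middle bands and 35.9% (31.7 to 40.2%) in the farthest. The intervals of the nearest and the farthest band do not overlap, but they cover counting error only and no difference was tested. The share of bases in extended lncRNA spans also rose over the bands, at 12.9, 14.5, 16.1 and 16.2%. Among peaks with a tabled start, 42.3% were at it in each of the nearer bands and 37.9 and 37.7% in the farther ones. The nearest coding gene was itself marked at an end for 505 of the 771 lncRNA peaks (65.5%, 62 to 68.9%) and for 1111 of the 1766 peaks at that distance with no lncRNA gene (62.9%, 60.6 to 65.2%), so that these shares overlap in their intervals. Both stand above the 40.1% of all coding genes.

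In fold enrichment, the authors' linear ratio of signal over local background, the lncRNA peaks were like other distal peaks and above coding gene ends. Median fold was 5.47 in list 1 (quartiles 4.33 and 7.46, range 1.69 to 21.1) and 4.73 in list 2 (quartiles 3.59 and 6.33, range 1.56 to 32.8). Peaks at the same distance with no lncRNA gene had medians of 5.88 and 4.95, and the 7534 shared peaks at coding gene ends 4.0 and 3.69. The reads behind those folds ran the other way. The lncRNA peaks had median recovered reads at the summit of 24 and 26, against 20 and 22 at distal peaks without an lncRNA gene and 50 and 53 at coding gene ends. The recovered background of list 1 was a median of 3 reads at lncRNA peaks, 2 at the other distal peaks and 11 at coding gene ends. A low fold at a coding end thus went with more reads over a higher background.

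Peaks at lncRNA starts and peaks elsewhere in the genes had similar median folds. The 250 peaks at a start had median folds of 5.46 and 4.58, against 5.47 and 4.81 for the 376 peaks away from a tabled start. Median reads were 28 and 30 at starts and 22 and 24 away from them. Median width in list 1 was 548 bp at starts, 468 bp away from them and 441 bp for distal peaks with no lncRNA gene, while in list 2 it was 777, 782 and 716 bp. Peaks at starts were thus wider than peaks away from them in list 1 and not in list 2. In both lists the peaks at starts were wider than distal peaks with no lncRNA gene.

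**Figure D3:**
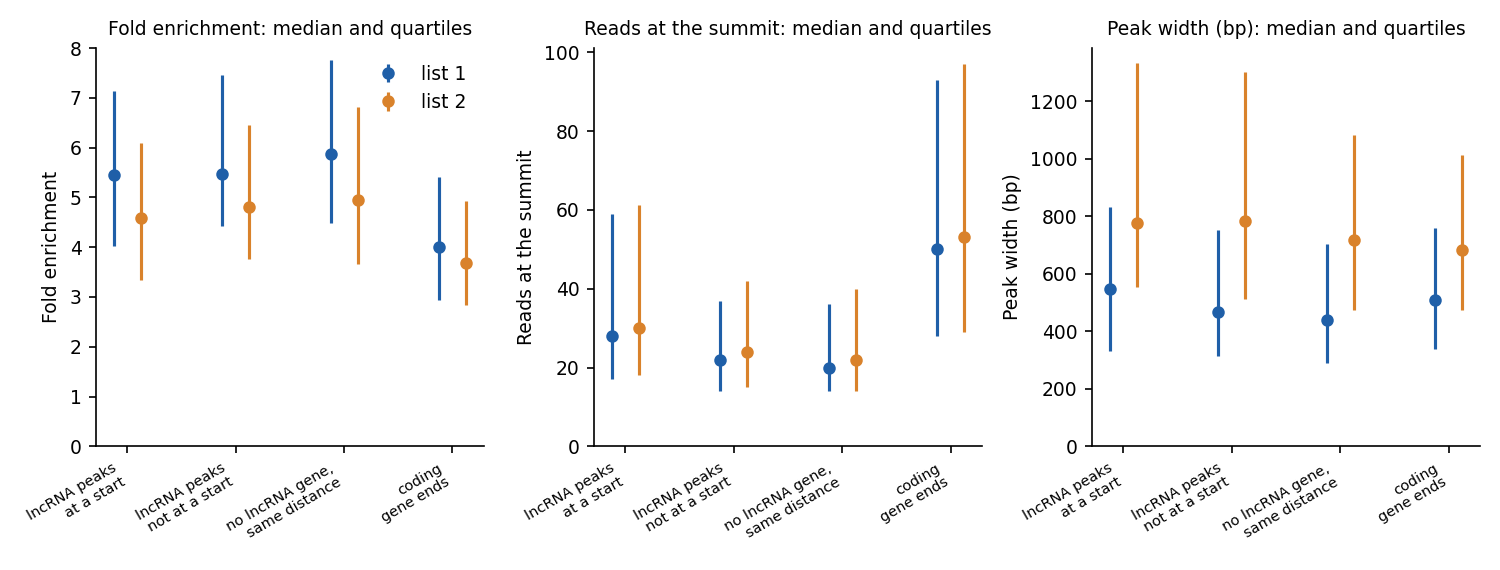
Median (point) and quartiles (line) of fold enrichment, reads at the summit and peak width in bp for lncRNA peaks at an annotated start, lncRNA peaks away from it, distal peaks with no lncRNA gene and peaks at coding gene ends, in both lists. Coding gene ends have the lowest fold (4.0 and 3.69) and the most reads (50 and 53).

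The base content of the promoters divided the marked starts. Of the 4501 lncRNA starts with a promoter in the range, 177 (3.93%) had a peak over the promoter, against 7387 of the 20085 coding starts (36.8%) under a shared peak. Median GC was 54.7% under an lncRNA peak and 47.3% at the 4324 lncRNA starts without one, and median CpG observed over expected was 0.411 and 0.211. At coding starts under a peak these medians were 63% and 0.833. A CpG ratio of at least 0.6 was found at 31.6% of the lncRNA starts under a peak and 4.74% of those without, beside 84.9% of the coding starts under a peak and 35.8% of all 32851 starts in the table. Most lncRNA starts under a peak were thus below that ratio, like the Gm34455 (0.1) and Gm28867 (0.204) sequences printed above, and a smaller group resembled Snhg5 (1.26) and Dleu2 (0.856). Malat1 stood at 0.604 and Mir1a-1hg at 0.485.

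The 52 peaks over CpG-rich lncRNA starts had median folds of 3.92 and 3.99 with 76 reads at the summit over a background of 15.5 reads in list 1. The 107 peaks over CpG-poor starts had median folds of 6 and 5 with 27 reads over 3.81. The folds of the CpG-rich group were close to those of coding gene ends (4.0 and 3.69) and the folds of the CpG-poor group to those of distal peaks (5.88 and 4.95), while both backgrounds were above those groups' medians of 11 and 2 reads.

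Motif matches followed base content in part. The GC box, GGGCGG, was in 36.2% of lncRNA promoters under a peak, 8.88% of those without and 35.7% of all starts. The ETS motif, CCGGAAG, was in 8.47% under a peak, 3.01% without and 8.86% of all starts. The nuclear receptor motif, AAGGTCA, was in 9.6%, 6.43% and 4.72% of the same groups. The AT-rich GATA motif, AGATAA, had the opposite order, with 9.04% under a peak, 15.9% without and 11.2% of all starts. The TEAD motif, GGAATG, was in 15.3%, 17.8% and 14.7%. Coding starts under a shared peak and without one had the same order for the GC box, ETS, GATA and TEAD motifs. The nuclear receptor motif had the reverse order there, with 2.84% under a shared peak and 4.73% without. Both strands were searched, and neighbouring GC boxes can overlap, as in the Dleu2 and Snhg5 sequences. MEF2 factors drive muscle genes. Their motif was in 0.379% of coding starts under a shared peak, 0.378% of those without and 0.402% of all starts. Among lncRNA promoters it was in 3 of the 177 under a peak (1.69%) and 0.37% of those without. Of those 3, a pair are overlapping Gm34455 starts that share 1 match, and the other is Dleu2, where the match lies within the bases after the start. With 3 starts this is a count of letters and no difference was tested.

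The 12 lncRNA peaks with the lowest summed rank of fold over both lists lay mostly at genes with placeholder names. The peak with the lowest summed rank, in Gm32191 (chr6:97265292-97265955), had folds of 16.9 and 14.5 with 33 and 38 reads, 12406 bp from Lmod3, which nucleates actin filaments in muscle. In Gm34622 (chr15:85710082-85710462) they were 17.4 and 14.1 with 34 and 38 reads, 24638 bp from Ppara, the nuclear receptor that drives fatty acid oxidation genes. The peak in 1700015I17Rik (chr8:35707907-35708253) had the highest list 1 fold of all lncRNA peaks, 21.1, beside 13.8 in list 2, with 43 reads in each. These peaks rest on few reads over a low background.

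Others of the 12 differed in reads rather than fold. The peak at Lncbate10 and Gm46637 (chr18:61483642-61485430) had folds of 16.6 and 10.2 on 132 and 131 reads. The peak in Gm19299 and Gm40529 (chr9:67160620-67161554), 55998 bp from the talin gene Tln2, had 11 and 14.7 on 131 and 141 reads. The 2119-bp peak at Gm33173 (chr14:120845642-120847760) had 14.7 and 14.1. At tabled starts lay the peaks of Gm33173, of Gm35413 (16.4 and 12.3), of Gm41309 (14.9 and 12.1) and of Gm28867 (16.3 and 9.98), whose summit was 284 bp before the start printed above. The remaining 3 were in C330002G04Rik (17.9 and 10.9), at Gm26760 and LOC115486415 (16.3 and 12.4) and in Gm34213. In Gm34213 the lists differed in reads, with 27 in list 1 and 84 in list 2 at summits 51 bp apart, for folds of 13.9 and 17.6. No start was tabled for Gm34213, 1700015I17Rik, Lncbate10 and Gm46637. Their peaks touched a gene end, and whether that end is a start is unknown here. At 21 lncRNA peaks (2.72%) the fold was at least 10 in both lists, against 4.87% of distal peaks without an lncRNA gene and 0.571% of coding gene ends.

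**Figure D4:**
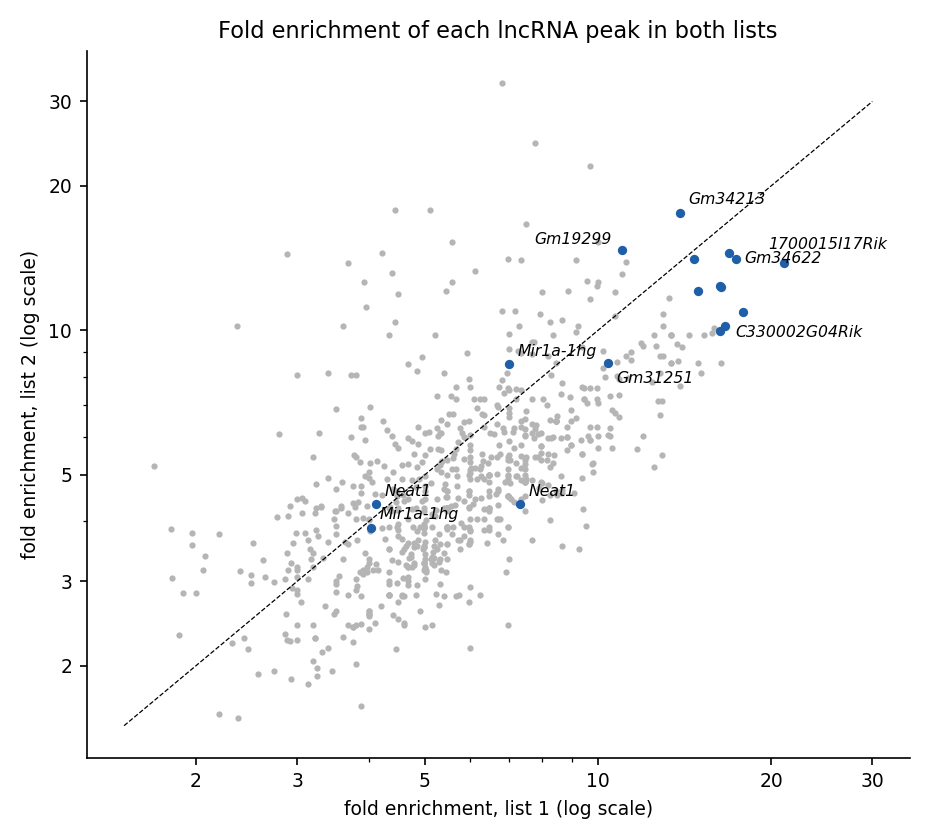
Fold enrichment of each of the 771 lncRNA peaks in list 1 (horizontal) and list 2 (vertical), on log axes, with the line of equal fold; blue points are the 12 peaks of lowest summed rank and the 5 widest. The fold of list 2 was above that of list 1 at 228 peaks (29.6%), and the Neat1 and Mir1a-1hg peaks sit at moderate fold.

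The widest lncRNA peaks ran along genes with known heart or nuclear roles. Neat1, the RNA that builds paraspeckles, was covered over most of its 20773-bp span. List 1 called peaks of 18422 bp (chr19:5817886-5836307, fold 7.32) and 8183 bp (chr19:5836509-5844691, fold 4.11) there. List 2 called a single peak of 27393 bp over both, with a fold of 4.35. The summits had 116 and 60 reads in list 1 and 118 in list 2. The first of these peaks began before the lower-numbered end of the Neat1 span, and its summit lay outside the span.

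Mir1a-1hg, the host of the muscle microRNA miR-1, held 4 peaks in both lists with nearly the same borders. Its 16199-bp span lies at chr2:180385604-180401802 on the plus strand, between Gata5 and Slco4a1 and over 50 kb from both. The peak at its start (chr2:180385430-180386077) had folds of 3.55 and 3.08, with 283 and 307 reads and a summit 33 bp before the start. That peak also overlapped an end of B230312C02Rik, for which no start was tabled, so its reads cannot be given to Mir1a-1hg alone. The next, of 557 bp, had 3.47 and 2.57 with 28 and 29 reads. The 6043-bp peak that followed (chr2:180389048-180395090) had 7.0 and 8.51 with 97 and 109 reads, and the 11290-bp peak beyond it (chr2:180395386-180406675) had 4.03 and 3.88 with 148 and 174. In all, list 1 peaks covered 18538 bp. The start thus had the most reads and a low fold, while the gene body had the highest fold. The miR-1a-1-5p printed above lies at chr2:180389057-180389079, under the near edge of the 6043-bp peak.

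The remaining wide peak adjoined cardiac myosin genes. At Gm31251 a 6987-bp peak (chr14:55000468-55007454) had folds of 10.4 and 8.57 on 333 and 234 reads, 9335 bp from Myh7, which encodes slow myosin heavy chain. Its summit lay outside the Gm31251 span, within the 1000 bp added to it. Widths of 2000 bp or more in both lists were found at 16 lncRNA peaks (2.08%, exact interval 1.19 to 3.35%), 1.3% of distal peaks without an lncRNA gene and 1.51% of coding gene ends.

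**Figure D5:**
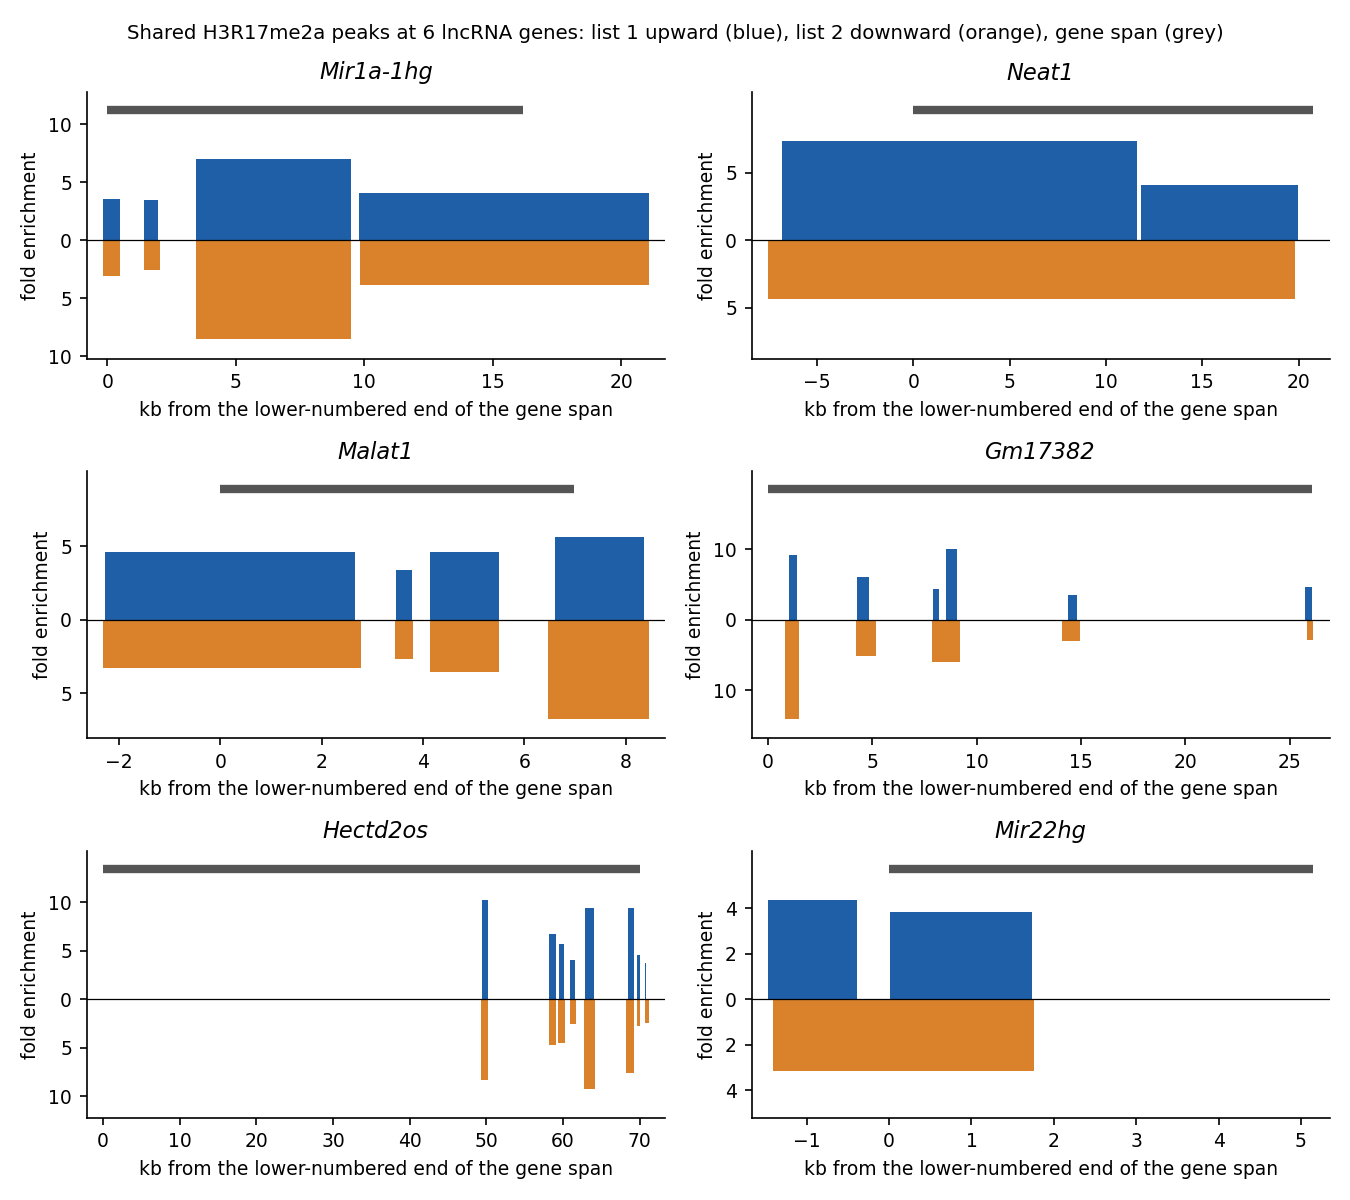
Shared peaks at Mir1a-1hg, Neat1, Malat1, Gm17382, Hectd2os and Mir22hg as bars of their fold enrichment in list 1 (upward) and list 2 (downward), by kb from the lower-numbered end of the gene span (grey). List 2 joins the 18422-bp and 8183-bp peaks of list 1 at Neat1 into 1 peak, while at Mir1a-1hg both lists have the same 4 peaks.

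The 5 lncRNA genes with the most peaks carried 6 to 8 each. Hectd2os, on the minus strand at chr19:36619418-36689479 beside the ubiquitin ligase gene Hectd2, held 8, all in the part nearest its start. Their list 1 folds ran from 3.75 to 10.2 and their list 2 folds from 2.41 to 9.23. The peak with the most reads (chr19:36682261-36683480) had 74 and 73, with folds of 9.38 and 9.23. The 3 peaks within 1000 bp of the start differed among themselves, with 9.39 and 7.62 on 39 and 36 reads, 4.56 and 2.79 on 40 and 39, and 3.75 and 2.41 on 14 and 14.

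Gm17382, on the minus strand at chr17:26860177-26886246, held 6 peaks, of which 5 had Nkx2-5 as the nearest coding gene, a homeobox factor of the heart. The peak farthest from its start (chr17:26861174-26861580) had folds of 9.17 and 14 on 54 and 63 reads, and the peak at its start 4.6 and 2.8 on 22 and 21. Gm34455, near the phosphatase gene Dusp1, held 6. Its highest list 2 fold was over the start printed above, at 6.11 and 13.3 on 54 and 55 reads. Here that peak stood above the others in list 2, whose folds ran from 3.28 to 4.88. Among the others, the peak at chr17:26490109-26490310 also lay within 1000 bp of a start. Its folds were 4.01 and 3.81, the latter from a list 2 peak shared with its neighbour.

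Gm51955 and Gm32845 had 7 peaks each and share some of them with overlapping lncRNA genes. In Gm51955 the highest folds were 10 and 15.3 (chr12:86833128-86834937), at the start of the overlapping Gm40491, and the most reads were 254 and 252, at a peak with folds of 4.56 and 4.9. In Gm32845 folds ran from 3.13 to 5.75 in list 1 and from 2.79 to 6.28 in list 2, near the phosphatase gene Ptpn1, which was not marked at an end. Over all members, 91 (11.8%) lay at more than 1 lncRNA gene, and the 771 list 1 peaks correspond to 719 distinct list 2 peaks, so neighbours can share a list 2 value.

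Of the lncRNA genes listed for heart and muscle, 6 of the 14 in the distance range held a peak: Bvht, Carmn, Hand2os1, Malat1, Mir1a-1hg and Mir22hg. The 8 without were 2310065F04Rik, Fendrr, Gata6os, Gm10561, Meg3, Miat, Myhas and Pantr1. This list was chosen with earlier results known, so its count is set beside the 8.7% of all such genes without a test. Hand2os1 starts beside Hand2, a factor of ventricle formation, and is read away from it. Its peaks had folds of 3.4 and 4.92 on 16 and 15 reads, and of 4 and 4.92 on 11 and 15, under the same list 2 peak. Carmn, the host of miR-143 and miR-145 of smooth muscle, shared 2 peaks with Bvht (Braveheart), a transcript of cardiac progenitors, at folds of 5.15 and 3.28 and of 3.75 and 4.37. A further peak inside Carmn had 3.3 and 4.28. These 5 peaks had 11 to 33 reads, few beside the starts of Mir1a-1hg and Malat1.

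Malat1 and Mir22hg carried more reads. Malat1 is an abundant nuclear RNA of splicing speckles, at chr19:5795690-5802672 on the minus strand. The peak over its printed start (chr19:5802298-5804056) had folds of 5.6 and 6.71 on 178 and 183 reads, with the summit 998 bp upstream. A 4936-bp peak across its far end (chr19:5793406-5798341) had 4.63 and 3.25 on 73 and 72 reads, and the 2 between them 3.35 and 2.67 and 4.63 and 3.55. At Mir22hg, host of miR-22, peaks just before and just after the start had list 1 folds of 4.34 and 3.85 on 90 and 203 reads. List 2 joined them into a 3177-bp peak with a fold of 3.13 on 216 reads. The miR-22 hairpin lay 447 bp beyond the nearer peak.

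Of 20 small RNA host genes in the range, 8 had a peak: Dleu2, Mir1a-1hg, Mir22hg, Oip5os1, Snhg15, Snhg20, Snhg4 and Snhg5. That is beside 8.7% of all lncRNA genes in range, as for the lists that follow. All but Snhg4, for which no start was tabled, had one at the start. The Snhg genes are spliced hosts of small nucleolar RNAs. Snhg5 had 294 and 304 reads with the summit 45 bp before its start, but folds of 1.97 and 3.57. Snhg15 had 116 and 115 reads with folds of 4.68 and 3.61, its summit 21 bp before the start. Snhg20 had 17 reads in both lists and higher folds, 7.35 and 5.16, with the summit 189 bp after the start. Thus reads and fold ordered these hosts differently. Dleu2, host of miR-15a and miR-16-1, had a list 1 peak just inside its start, with 244 reads and a fold of 2.99. Another list 1 peak, over the printed start, had 117 reads, a fold of 1.97 and its summit 186 bp before the start. List 2 joined them into a 2006-bp peak with 243 reads and a fold of 3.78. A peak in the body of Dleu2 had 43 and 46 reads with folds of 5.45 and 4.5.

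Among the hosts without a peak were Mir17hg, Mir155hg and Snhg14. In the RefSeq table, 15 lncRNA genes with a peak overlap 19 microRNA genes, and 1 of those listed, Mir1a-1, lay under a peak. That table was not complete, since for Mir1a-1 it held the 5p sequence but no hairpin. Other microRNAs under these peaks can therefore be missing from the count. No microRNA or promoter of chromosome 18, where Carmn lies, entered these counts or those of the starts.

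Of the widely expressed nuclear and regulatory lncRNA genes, 5 of 18 in the range had a peak: Malat1, Neat1, Norad, Oip5os1 and Pvt1. Oip5os1 (Cyrano) had 139 and 137 reads and folds of 2.06 and 3.17, with the summit 28 bp before its start. Norad, which binds Pumilio proteins, shared with Gm14170 a peak with folds of 5.58 and 3.76. Pvt1, next to Myc, had folds of 2.64 and 3.06 and of 6.15 and 4.9. Among those without a peak were Tug1, Miat, Hotair and Sox2ot. In imprinted domains 1 of 6 genes had a peak, Airn, which is transcribed across Igf2r. Its annotated start lies inside the Igf2r span, where the distance limit allows no peak to be counted. Of its 3 peaks, the one with the highest fold (chr17:12832040-12832648) had 12.4 and 7.82 on 24 reads in both lists. H19, Meg3, Rian, Snhg14 and Zim3 had none. Malat1, Oip5os1, Mir1a-1hg and Mir22hg each stand in more than 1 of these lists.

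Some lncRNA peaks had a cardiac gene as nearest coding neighbour, which places them but does not link them. Of the coding genes listed, this held for 3 of 27 sarcomere genes (Actc1, Myh7, Tpm1), 2 of 31 calcium handling and channel genes (Gja5, Kcnh2) and 8 of 34 cardiac transcription factors (Gata5, Hand2, Irx3, Mef2d, Nkx2-5, Ppara, Prox1, Tbx3). Of all 20665 coding genes, 474 (2.29%) were the nearest to an lncRNA peak. At their own ends 22, 22 and 26 of these lists were marked, beside 40.1% of all coding genes for that property. Among the cell type markers, 1 of 10 cardiomyocyte (Actc1), 1 of 5 mural (Acta2) and 1 of 5 neuronal genes (Snap25) were nearest neighbours too. None of the fibroblast, endothelial or immune markers was.

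Beside sarcomere genes other than Myh7 the peaks were of moderate list 1 fold. Near Tpm1, which encodes tropomyosin, the peak at Gm30639 had folds of 4.38 and 13.2 although its reads were 139 and 126. Near Actc1, cardiac actin, the peaks at C130080G10Rik and Gm46757 had 4.56 and 3.68 on 40 and 41 reads and 4.59 and 3.05 on 10 and 10.

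Beside channel genes, 4930573H18Rik held 4 peaks next to Gja5, a connexin of atria and conduction tissue. Their list 1 folds were 15.8, 8.01, 6.23 and 5.91, and the last had the most reads, 129 in both lists. Gja5 itself was not marked at an end. Near Kcnh2, a repolarising potassium channel, the peak at Gm33476 had 5.45 and 12.1 on 48 and 96 reads, so that the lists differ there.

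Beside transcription factor genes, the peak with the most reads lay at the start of 1700113A16Rik, 5575 bp from Mef2d, with 389 reads in list 1, folds of 4.02 and 5.3 and the summit 6 bp after the start. In AW549542, 95133 bp from Tbx3, a patterning factor of the conduction system, a peak had 377 reads in list 1 with folds of 3.94 and 5.91. Around Ppara there were peaks at Lncppara (5 and 3.16), Gm34622 and Gm46529 (5.86 and 5.39), besides the one of high fold described above. The let-7c-2 and let-7b hairpins lay 3028 and 3744 bp from the Lncppara peak.

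Near Hand2, peaks at Gm34030 and Hdnr had folds of 6.84 and 5.25 in list 1 under the same list 2 peak (6.27), and a further peak in Hdnr 5.97 and 4.29. LOC115488773 held peaks near Nkx2-5 at 4.75 and 3.22 and at 2.79 and 6.09. Prox1 (Gm30446, 6.34 and 4.04), Gata5 (Gm29943, 5.17 and 3.46) and Irx3 (Gm36380, 5.33 and 5.64) each had lncRNA peaks of moderate fold nearby. The peak in Irx3os had 4.98 and 3.9 on 9 reads in both lists, among the fewest here.

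The peaks nearest the distance limits were as follows. Just inside 5000 bp lay peaks at Gm46405 (5014 bp from Sox4, folds 3.2 and 2.43), A330023F24Rik (5041 bp from Cd46, 4.4 and 4.66) and Gm30922 (5048 bp from Mr1, 4.29 and 4.89). Just outside lay Gm40325 (4981 bp from Bri3bp, 2.33 and 3.19), Gm11266 (4976 bp from Nfib, 4.38 and 2.64) and Gm10685 (4963 bp from BC107364, 3.8 and 2.55). Just inside 100000 bp lay Gm33439 (96704 bp from Dyrk2, 4.27 and 3.68), Gm32685 (96323 bp from Ptpn1, 7 and 7.5) and 4930452A19Rik (95910 bp from Pabpc6, 5.27 and 6.01). Just outside lay Gm33849 (100003 bp from Ankrd55, 8.34 and 5.28), Gm36139 (100624 bp, 7.96 and 5.64) and 2610307P16Rik (100720 bp from Sox4, 7.49 and 4.22). At this limit the list 1 folds of the 3 outside were all above those of the 3 inside, and the list 2 folds overlapped.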

How the data were processed

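ChIP-seq peak lists of 2 heart samples were used, 1 deposited list per sample in a 10-column layout without header. Bowtie2, FastQC and mm10 are named in the submitters' processing notes; for the peak caller, control and filters, the sources used here name nothing. The deposited fold enrichment (a linear ratio), the −log10 p-values and q-values and the score (10 times −log10 p) are the authors' own values, read from the layout, and served here to rank, filter or characterise peaks inside each list. Genes, promoters and microRNAs came from RefSeq tables for GRCm38.p6.

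Computed here (Python 3.11.15, pandas 2.3.3, NumPy 2.4.6, SciPy 1.17.1): overlaps of at least 1 bp, distances, densities, exact binomial intervals, motif matches, and summit reads. The reads solve fold = (reads + 1) / (background + 1), with p the upper Poisson tail; list 2 needed reads multiplied by 0.618. This gave p within 0.002 (−log10) in 99.9% and 99.7% of shared peaks. The recovery and the overlap steps were tested on simulated data. List 2 backgrounds are on the multiplied scale and are not given.

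Peaks named were the 12 of lowest summed fold rank, the 5 widest, all at the 5 genes with most peaks, all at listed lncRNA genes or nearest to listed coding genes, and those nearest the distance limits. The peaks and lists were chosen with earlier results of these data known. With the samples counted as 1, no standard deviation and no test between groups was possible, and intervals cover counting error only. No genome was used, so bases under peaks outside the promoter table were not read.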

Additional observations from a re-analysis of the deposited data

Results flagged for a closer look

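Signals of the same kind lay outside the 771 peaks. On the sex chromosomes, 7 shared peaks met every other part of the definition, 7 on X and 0 on Y, with median folds of 5.47 and 4.16 at 6 lncRNA genes. They include Ftx and Jpx, transcripts of the X inactivation centre: Ftx had folds of 6.13 and 7.67 and of 3.13 and 2.87, and Jpx 4.6 and 3.83. In list 2, a further 790 peaks without a list 1 partner met the remaining conditions. Their median fold was 3.16 and their median −log10 p 3.15, and 157 (19.9%) reached the list 1 minimum of 5. They lay at 668 lncRNA genes, of which 481 had no shared peak. No sample without the antibody was analysed here, so neither signal could be set against a control.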

How the results depend on the processing

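The main values were 771 peaks, 51.9% at a gene end, median folds of 5.47 and 4.73, and 562 genes or 8.7% of those in range. Holding both lists to a −log10 p of at least 5 gave folds of 6.23 and 5.36 and 7.23% of genes. A −log10 q of at least 2 gave 6 and 5.22 and 7.49%. The upper 50% by fold gave 446 peaks, 7 and 5.72, and 5.82%. Each list alone gave 793 to 1512 peaks, 51.7 to 43.5% at a gene end, 577 to 1044 genes and 8.93 to 16.2% of genes, list 2 being the higher in counts, with a fold of 5.47 in list 1 and 3.63 in list 2. Extending spans by 0 or 3000 bp gave 43.5 and 44.3% at an end and 7.9 and 9.76% of genes. End windows of 500 and 2000 bp gave 38.4 and 60.4%, and placing peaks by summit 44.6%. Keeping summits at most 1 bp apart, chosen after seeing the data, gave 379 peaks, a list 1 fold of 5.85, 346 genes and 5.36%. Annotated starts in place of either span end, also added after seeing the data, gave 39.9%. Coverage of 50%, list 2 borders and distance limits of 10000 or 50000 bp gave 587 to 767 peaks and 51 to 54.3% at an end. Of 60 named lncRNA genes, 59 kept a peak at −log10 p of 5, 43 in the upper 50% by fold and 37 with matched summits. No paired analysis was possible because the series has 1 group. Summits of few reads limit precision, and the causes of these shifts were not tested.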

Other observations

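Some further lncRNA peaks were picked after their values were seen, for their width or reads. At Gm10570, 9210 bp from Fabp3, the fatty acid binding protein of heart muscle, folds were 7.68 and 6.39 on 191 and 205 reads. A 3234-bp peak at the start of Gm32718, 20346 bp from the beta-adrenergic receptor gene Adrb1, had 6.89 and 4.84 on 61 reads in both lists. At the start of 2410080I02Rik, 6064 bp from Klf9, a 3345-bp peak had 6.28 and 6.7 on 206 and 215 reads. In F630040K05Rik, 14942 bp from 1600014C23Rik, a peak had 9.7 and 7.57 on 222 and 231 reads.

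At some peaks the lists differed in fold by several times. In Gm29483 folds were 6.82 and 32.8 on 74 and 95 reads, in Gm33432 7.78 and 24.6 on 69 and 87, and in Gm37125 2.36 and 10.2 on 32 and 35. The highest list 1 −log10 p of all lncRNA peaks, 304 and 298, belonged to 2 peaks in Gm52861, whose folds were 2.49 in list 1 and 2.97 and 3.09 in list 2; their reads could not be recovered.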
